A study of Mus musculus with 2 samples.

Results

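The 36 genes described here encode transcription factors that mark the classes of postmitotic interneurons in the embryonic spinal cord and the neurons of the dorsal horn. They were chosen by name, though with earlier results of these data known, and all 36 were found among the 43346 gene rows of the deposited tables. Total RNA was measured in the neural tube of mouse embryos of the B6NCrl strain at embryonic day 14.5. There was 1 group with 2 libraries, replicate 2 from pup 1 of the second pregnant female and replicate 1 from pup 1 of the first, each made from 10 ng of RNA with spike-in RNA. No allele or agent is named in the labels, which call each sample a single tube and also give its sex as male and female pooled. With 1 group and 2 libraries there is no contrast between conditions and no test, so each level is given in both libraries and each ratio with an interval that covers counting error only. Levels are in TPM, a unit that divides reads by transcript length and scales each library to the same total, so that they can be set side by side between genes.

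In the developing cord, progenitors at set positions along the dorsal to ventral axis give rise to cardinal classes of neurons, named dI1 to dI6 dorsally and V0 to V3 ventrally. As a neuron leaves the cell cycle it switches on a combination of homeobox, forkhead, GATA, bHLH and zinc-finger factors that sets its transmitter, its axon path and its settling place. Later, late-born dorsal neurons form the layers of the dorsal horn, where further factors divide them into groups that process touch, itch and pain. In bulk tissue, fewer cells of a type and less RNA per cell cannot be told apart, so a level below does not count cells.

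The 2 libraries held 26025302 expected counts in replicate 2 and 33360108 in replicate 1. Neuronal and trunk markers were high in both: 5 of 5 pan-neuronal genes, led by Tubb3, summed to 2972 TPM in replicate 2 and 3045 TPM in replicate 1, and 6 of 6 Hox genes of the trunk summed to 477 TPM in replicate 2 and 487 TPM in replicate 1. Hoxd9, the only one of these Hox genes past 1.5-fold, had 17.05 TPM in replicate 2 and 29.63 TPM in replicate 1. The forebrain and retina genes Emx2 and Crx had 0 counts in both libraries. Replicate 2 stood apart in markers of tissue around the cord. All 5 genes of meninges and fibroblasts, led by Col3a1, were at least 1.5-fold higher there, with a summed level of 974 TPM in replicate 2 and 43.7 TPM in replicate 1. All 6 sensory ganglion genes, Avil and P2rx3 among them, summed to 146 TPM in replicate 2 and 2.45 TPM in replicate 1, and all 5 Schwann cell and neural crest genes to 48.8 TPM in replicate 2 and 8.73 TPM in replicate 1.

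Of the 36 factors, 29 reached 1 TPM in both libraries, beside 34.7% of all gene rows and 60.8% of protein-coding ones. A further 6 stayed under 1 TPM in both, namely Lhx2, Tlx1, Evx1, Evx2, Vsx1 and Sim1, and Pax5 lay on either side of that level. The factors covered a wide range. Their median level was 5.60 TPM in replicate 2, against 5.46 TPM in replicate 1, close to the median over protein-coding rows of 5.67 TPM in replicate 2 and 4.88 TPM in replicate 1. Bcl11a was the most abundant and Vsx1 the least. The plot of levels by class shows the medians of the dorsal horn factors and the shared inhibitory factors above that of the ventral class factors, with Pax5 the lowest of the shared ones.

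**Figure D1:**
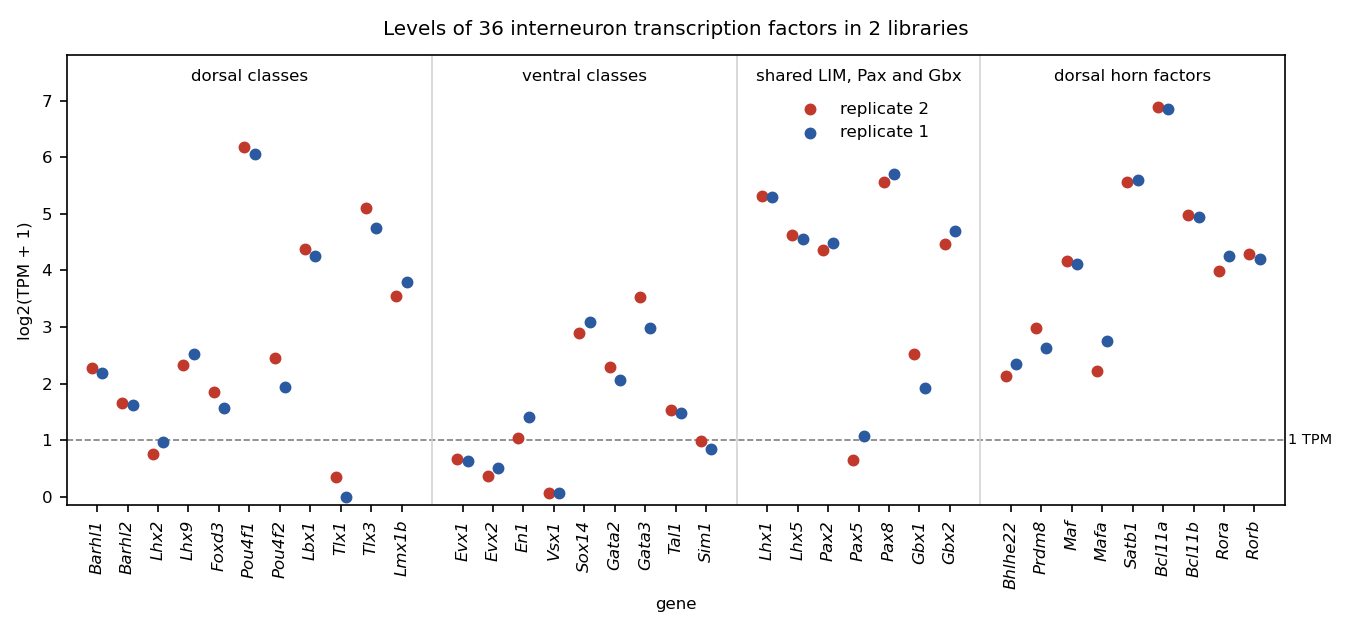
Level of each of the 36 factors as log2(TPM + 1), with 1 point for each library, grouped by class. Points of the same gene lie close together, 4 of the 9 ventral factors lie under the dashed line of 1 TPM in both libraries, and all 9 dorsal horn factors lie above it.

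The dorsal classes dI1 to dI5 were represented by 11 factors, 9 of which reached 1 TPM in both libraries. Their summed level was 153 TPM in replicate 2 and 139 TPM in replicate 1. In dI1, the commissural neurons born from Atoh1 progenitors, Lhx9 led with 4.04 TPM in replicate 2 and 4.77 TPM in replicate 1. Lhx9 and its relative Lhx2 are LIM homeobox factors that act in guiding dI1 axons in the mouse. Lhx2 had 0.68 TPM in replicate 2 and 0.96 TPM in replicate 1, from 28 and 46 counts, below Lhx9 in both libraries. The homeobox factors Barhl1 and Barhl2, which act downstream of Atoh1, were intermediate. Barhl1 had 3.86 TPM in replicate 2 and 3.55 TPM in replicate 1, and Barhl2 had 2.14 TPM in replicate 2 and 2.09 TPM in replicate 1. Foxd3, a forkhead factor of dI2 neurons that is also a classic neural crest gene, had 2.61 TPM in replicate 2 and 1.97 TPM in replicate 1.

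The POU and glutamatergic factors made up most of the dorsal sum. Pou4f1, known as Brn3a and present in several dorsal classes and in sensory neurons, had 71.2 TPM in replicate 2 and 65.7 TPM in replicate 1, ranking second of the 36. Its relative Pou4f2 had 4.45 TPM in replicate 2 and 2.84 TPM in replicate 1. Tlx3, which selects the glutamatergic over the GABAergic fate in dorsal neurons, had 33.5 TPM in replicate 2 and 26.0 TPM in replicate 1. Its partner in that choice, Tlx1, had 3 counts in replicate 2 and 0 in replicate 1, so neither library was above a floor of 3 counts and no ratio is given. Lmx1b, a LIM homeobox factor of dI5 neurons, had 10.7 TPM in replicate 2 and 12.9 TPM in replicate 1. Lbx1, which sets the dI4 to dI6 identities and the late-born dorsal horn neurons, had 19.9 TPM in replicate 2 and 18.2 TPM in replicate 1.

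Pou4f1, Tlx3 and Foxd3 are also genes of sensory neurons or neural crest, whose other markers were far higher in replicate 2. The count ratio of replicate 2 to replicate 1, scaled by the trimmed mean of M values (TMM), was 0.948 for Pou4f1, with a 95% interval of 0.897 to 1.00. It was 1.21 (1.09 to 1.34) for Tlx3, 1.24 (0.910 to 1.68) for Foxd3 and 1.46 (1.19 to 1.80) for Pou4f2. Isl1, a LIM homeobox factor of dI3 neurons, motor neurons and sensory neurons outside the set of 36, had a ratio of 2.99 (2.76 to 3.25). The part of ganglion RNA in the levels of these factors was not tested. In replicate 1, where the 6 ganglion genes ranged from 0.02 to 0.84 TPM, Pou4f1 and Tlx3 had 65.7 TPM and 26.0 TPM.

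The ventral classes V0 to V3 were represented by 9 factors, of which 5 reached 1 TPM in both libraries. Their summed level was 25.8 TPM in replicate 2 and 22.9 TPM in replicate 1, and 4 V2 factors supplied most of it. Gata3, a zinc-finger factor of the inhibitory V2b neurons, was the highest with 10.6 TPM in replicate 2 and 6.87 TPM in replicate 1. Gata2, which acts before Gata3 in the same lineage, had 3.92 TPM in replicate 2 and 3.19 TPM in replicate 1. Tal1, a bHLH factor that works with them, had 1.88 TPM in replicate 2 and 1.80 TPM in replicate 1. Sox14, an HMG-box factor of V2 neurons, had 6.44 TPM in replicate 2 and 7.53 TPM in replicate 1. Vsx1, a homeobox factor of V2 precursors, had 3 counts in replicate 2 and 4 in replicate 1.

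The other ventral classes were near 1 TPM or below. En1, the homeobox factor that defines V1 inhibitory neurons, had 1.06 TPM in replicate 2 and 1.66 TPM in replicate 1. Sim1, the bHLH-PAS factor of V3 neurons, had 0.99 TPM in replicate 2 and 0.79 TPM in replicate 1. Both V0 factors, the homeobox genes Evx1 and Evx2, were under 1 TPM in both libraries. Evx1 had 0.58 TPM in replicate 2 and 0.55 TPM in replicate 1, and Evx2 had 0.29 TPM in replicate 2 and 0.43 TPM in replicate 1.

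Gata2, Gata3 and Tal1 are also blood or vessel genes. The summed level of 7 erythroid genes was 27.4 TPM in replicate 2 and 27.4 TPM in replicate 1, most of it Alas2, and the defining factor Gata1 had 1 count in each. Of the 6 erythroid genes that could be compared, Slc4a1, Klf1, Epor and Hemgn were past 1.5-fold higher in replicate 2, with ratios of 1.76, 1.77, 2.74 and 2.79, while Alas2 had a ratio of 0.810. The 8 endothelial genes summed to 240 TPM in replicate 2 and 109 TPM in replicate 1, each at least 1.5-fold higher in replicate 2. The corresponding ratio was 1.37 (1.19 to 1.58) for Gata3, 1.15 (0.933 to 1.41) for Gata2 and 0.922 (0.704 to 1.20) for Tal1. Mast cell and megakaryocyte genes, which Gata2 also marks, summed to 41.5 TPM in replicate 2 and 8 TPM in replicate 1. Most of it was Pf4 in replicate 2 and Itga2b in replicate 1. Itga2b, a megakaryocyte gene, had 4.50 TPM in replicate 2 and 5.54 TPM in replicate 1, from 64 and 84 counts. The mast cell genes Cpa3, Cma1 and Tpsb2 had at most 3 counts. The part of vessel or blood cells in these levels was not tested.

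The median dorsal class factor was at 4.04 TPM in replicate 2 and 3.55 TPM in replicate 1, and the median ventral one at 1.06 TPM in replicate 2 and 1.66 TPM in replicate 1. As log2(TPM + 1), the dorsal median was higher by 1.29 in replicate 2 and by 0.77 in replicate 1, a mean of 1.03 ± 0.37 (SD, n = 2). The direction was the same in both libraries. The difference was 0.30 once the factors under 1 TPM in both libraries, 2 of 11 dorsal and 4 of 9 ventral, were left out. That filter dropped low factors by their own level and took more from the ventral side. This value thus does not show that the gap rests on them. With means in place of medians the difference over all the factors was 1.28.

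The factors shared between inhibitory classes were abundant, with summed levels of 155 TPM in replicate 2 and 162 TPM in replicate 1 over 7 genes. Lhx1 and Lhx5 are LIM homeobox factors that maintain the inhibitory programme of several dorsal and ventral classes. Lhx1 had 38.8 TPM in replicate 2 and 38.3 TPM in replicate 1, and Lhx5 had 23.6 TPM in replicate 2 and 22.4 TPM in replicate 1. Pax2, a paired-box factor required for GABAergic differentiation in the dorsal horn, had 19.6 TPM in replicate 2 and 21.4 TPM in replicate 1. Its relative Pax8 was higher, with 46.4 TPM in replicate 2 and 51.4 TPM in replicate 1, and ranked 3 of the 36. Pax5 had 0.57 TPM in replicate 2 and 1.11 TPM in replicate 1, from 13 and 23 counts. Pax2, Pax8 and Lhx1 are also kidney genes. The kidney markers Nphs1, Umod and Cdh16 were each under 1 TPM in both libraries.

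Gbx2 and Gbx1 are homeobox factors of the dorsal cord, Gbx1 being kept in late-born inhibitory neurons of the mouse dorsal horn. Gbx2 had 21.1 TPM in replicate 2 and 24.8 TPM in replicate 1. Gbx1 had 4.77 TPM in replicate 2 and 2.79 TPM in replicate 1, from 241 and 191 counts. Thus Gbx2 was above Gbx1 in both libraries. The difference in Gbx2 between libraries rested on its retained-intron transcript Gbx2-202, with 5.08 TPM in replicate 2 and 10.2 TPM in replicate 1, while its coding transcript had 16.1 TPM in replicate 2 and 14.6 TPM in replicate 1. Gbx2, En1 and Pax5 are also genes of the midbrain and hindbrain. The 5 other markers of those regions were each under 1 TPM in both libraries. They summed to 1.03 TPM in replicate 2 and 0.78 TPM in replicate 1. Most of that was Egr2, from 36 counts in replicate 2 and 4 in replicate 1. Another of the 5, Atoh1, is also the dI1 progenitor gene named above.

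The median of the glutamatergic factors Tlx1, Tlx3 and Lmx1b was below that of Pax2, Pax5 and Pax8 in both libraries. It was 10.7 TPM in replicate 2 and 12.9 TPM in replicate 1, against 19.6 TPM in replicate 2 and 21.4 TPM in replicate 1 for the Pax genes, a difference of -0.76 ± 0.09 on the log2(TPM + 1) scale (SD, n = 2). With 3 genes on each side, this compares the middle gene of each list, Lmx1b and Pax2. It came to -0.12 when Tlx1, under 1 TPM in both libraries, was left out. Pax5, at 0.57 TPM in replicate 2 and 1.11 TPM in replicate 1, then stayed in. The filter thus dropped the lowest gene from the glutamatergic side only, so this value does not show that the gap rests on Tlx1.

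The 9 factors of dorsal horn neurons all reached 1 TPM in both libraries and had the largest summed level of the 4 groups, 258 TPM in replicate 2 and 258 TPM in replicate 1. Bcl11a, a zinc-finger factor that directs dorsal horn wiring in the mouse, led them. Bcl11a had 117 TPM in replicate 2 and 114 TPM in replicate 1. Its relative Bcl11b had 30.7 TPM in replicate 2 and 29.7 TPM in replicate 1. Satb1, a chromatin organiser, had 46.1 TPM in replicate 2 and 47.3 TPM in replicate 1. These 3 genes are known as well from lymphocytes. The T cell genes Cd3e, Cd3g, Cd4 and Rag1 were each below 0.2 TPM in both libraries, while Lck had 8.22 TPM in replicate 2 and 8.32 TPM in replicate 1.

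The other dorsal horn factors were at intermediate levels. Maf, a bZIP factor of touch-processing neurons, had 17.1 TPM in replicate 2 and 16.3 TPM in replicate 1, above its relative Mafa with 3.68 TPM in replicate 2 and 5.78 TPM in replicate 1. Maf is also a macrophage gene. The 6 macrophage genes, led by C1qb, summed to 143 TPM in replicate 2 and 80.6 TPM in replicate 1, while the ratio of Maf was 0.983 (0.913 to 1.06). Rora and Rorb encode retinoid-related orphan nuclear receptors of dorsal horn neurons that handle touch. Rora had 14.9 TPM in replicate 2 and 18.0 TPM in replicate 1, and Rorb had 18.6 TPM in replicate 2 and 17.3 TPM in replicate 1, so their order turned between the libraries. Bhlhe22, a bHLH factor of spinal inhibitory neurons that restrain itch, had 3.40 TPM in replicate 2 and 4.11 TPM in replicate 1. Its repressor partner Prdm8 had 6.86 TPM in replicate 2 and 5.15 TPM in replicate 1.

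The median of the dorsal horn factors was 17.1 TPM in replicate 2 and 17.3 TPM in replicate 1. The median of the other 27 factors was 4.04 TPM in replicate 2, against 3.19 TPM in replicate 1. As log2(TPM + 1), the dorsal horn median was higher by 1.84 in replicate 2 and 2.13 in replicate 1, a mean of 1.99 ± 0.20 (SD, n = 2), and by 1.25 without factors under 1 TPM in both libraries.

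Between the libraries, 34 factors had a mean count of at least 10 and could be compared. Only Gbx1 was at least 1.5-fold higher in replicate 2, beside 10.8% of all genes compared, and 3 were at least 1.5-fold lower, beside 8.75% of all genes. The ratio was 1.60 (95% interval 1.32 to 1.94) for Gbx1. It was 0.595 (0.422 to 0.829) for Mafa, 0.596 (0.399 to 0.878) for En1 and 0.633 (0.338 to 1.14) for Evx2. The counts behind these were small. Mafa had 54 counts in replicate 2 and 115 in replicate 1, En1 40 in replicate 2 and 85 in replicate 1, and Evx2 18 in replicate 2 and 36 in replicate 1. Scaled by spike-in totals, every ratio was 1.46 times larger, and En1, Mafa and Evx2 were then within 1.5-fold while 9 factors, Gbx1 included, passed that ratio upward.

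The size of these ratios was that of genes at large. The median ratio over the 34 factors was 0.954, beside 0.996 over 17623 genes, and the median change in either direction was 1.17-fold for the factors and 1.17-fold for all genes. At a mean count of at least 100 it was 1.15-fold over 26 factors and 1.13-fold over all genes. Among those 26 factors Rora had the lowest ratio, 0.729 (0.664 to 0.800). Those whose intervals included 1 were Barhl1, Pou4f1, Lbx1, Lhx1, Lhx5, Gata2, Tal1, Sim1, Maf, Bcl11b and Rorb. The plot of ratios shows wide intervals for the least abundant factors and narrow ones near 1 for the most abundant.

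**Figure D2:**
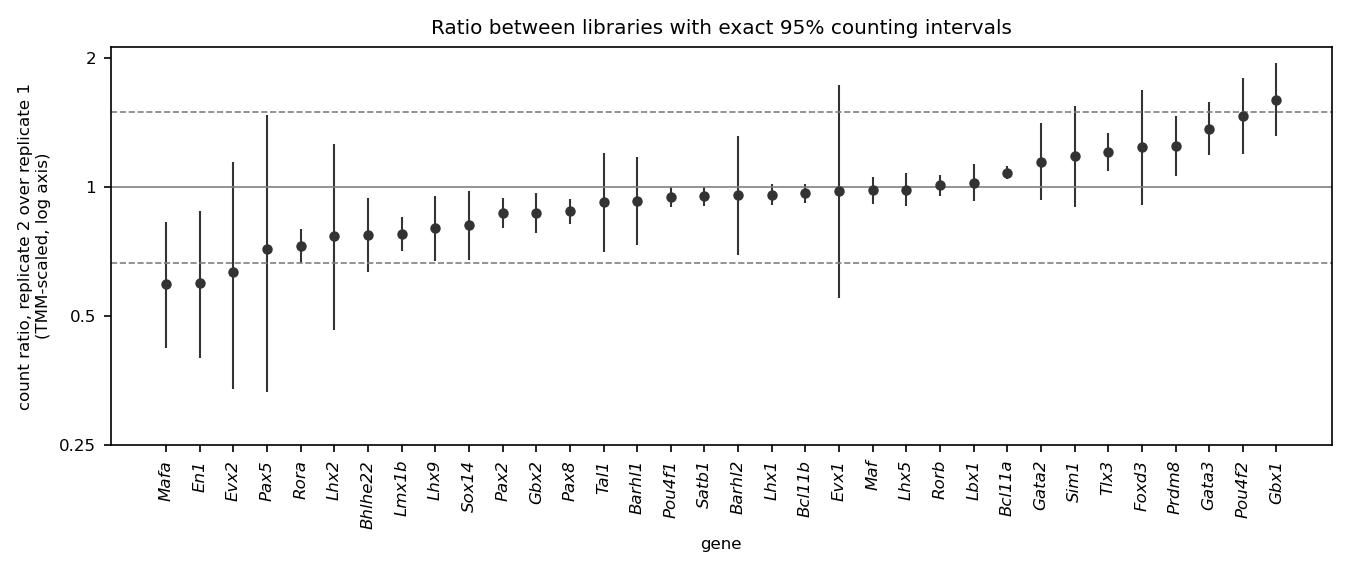
Count ratio of replicate 2 to replicate 1 on a log axis for the 34 factors with a mean count of at least 10, with exact 95% intervals for counting error. The solid line marks equal levels and the dashed lines 1.5-fold, passed upward by Gbx1 and downward by Mafa, En1 and Evx2.

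Many of the factors come as pairs of related genes that share a binding domain, and the levels of the paired genes were set against each other within each library. In 12 of 13 pairs the same gene was higher in both libraries, and in 8 pairs the gap was at least 2-fold on the TPM + 1 scale in both. These 8 include Tlx3 over Tlx1, whose gap has no measured size because Tlx1 was not above the floor of 3 counts. As a difference of log2(TPM + 1), Pou4f1 exceeded Pou4f2 by 3.73 in replicate 2 and 4.12 in replicate 1, and Pax2 exceeded Pax5 by 3.71 in replicate 2 and 3.41 in replicate 1. Pax2 was below Pax8 by a difference of -1.20 in replicate 2 and -1.22 in replicate 1, and Lhx2 was below Lhx9 by -1.58 in replicate 2 and -1.56 in replicate 1. Gbx2 exceeded Gbx1 by 1.94 in replicate 2 and 2.77 in replicate 1, Maf exceeded Mafa by 1.95 in replicate 2 and 1.35 in replicate 1, and Bcl11a exceeded Bcl11b by 1.90 in replicate 2 and 1.91 in replicate 1. In V2b, Gata3 exceeded Gata2 by 1.24 in replicate 2 and 0.91 in replicate 1, and in V0, Evx1 exceeded Evx2 by 0.29 in replicate 2 and 0.12 in replicate 1. Smaller gaps in the same direction in both libraries separated Lhx1 from Lhx5, at 0.69 in replicate 2 and 0.75 in replicate 1, and Barhl1 from Barhl2, at 0.63 in replicate 2 and 0.56 in replicate 1. Rora minus Rorb was the pair without a steady direction, at -0.30 in replicate 2 and 0.05 in replicate 1.

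Several of these gaps depended on non-coding transcripts. Over protein-coding transcripts alone, an alternative chosen after seeing the data, 7 pairs were at least 2-fold apart in both libraries. Pou4f1 then exceeded Pou4f2 by a mean of 2.67 in place of 3.92, and Barhl1 exceeded Barhl2 by 0.25 in place of 0.59. Pax2 minus Pax8 was -0.93 in place of -1.21, which takes that pair below a 2-fold gap.

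**Figure D3:**
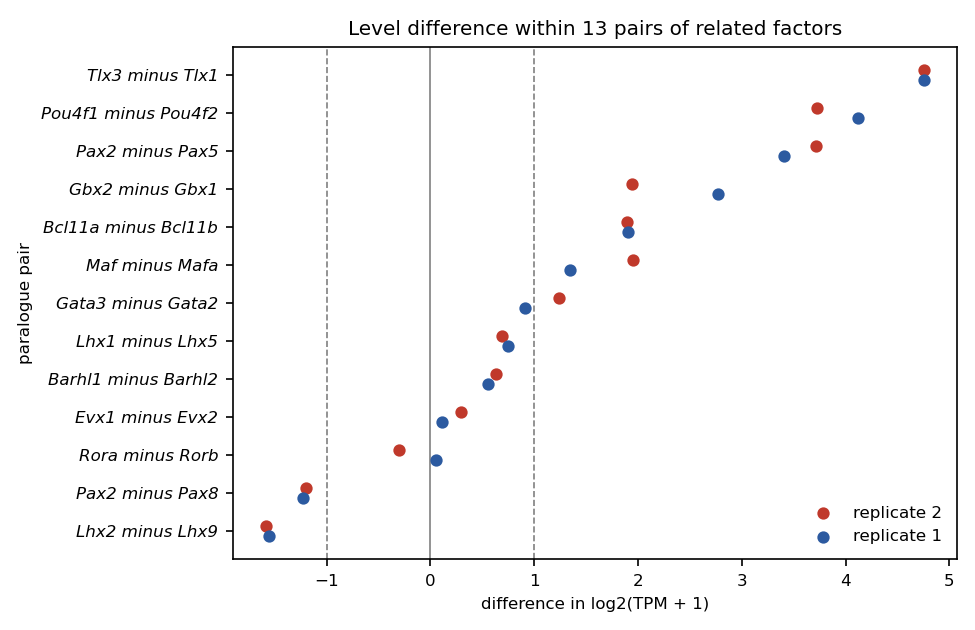
Difference in log2(TPM + 1) within 13 pairs of related factors, with 1 point for each library. The dashed lines mark a 2-fold gap, exceeded in both libraries by 8 pairs, the size of Tlx3 minus Tlx1 is set by the added 1 TPM, and Rora minus Rorb is the pair whose points lie on both sides of 0.

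The paired genes resemble each other in sequence. Over the aligned coding bases, identity within the 13 pairs ran from 68.8% for Rora and Rorb to 75.8% for Maf and Mafa. The longest stretch of identical coding bases was 71 in Pou4f1 and Pou4f2 and at most 38 in any other pair. How the authors assigned reads shared between paired genes is not given in the sources used here. A coding stretch of the homeodomain's recognition helix, which contacts DNA, is shown for 3 pairs from GENCODE transcripts of GRCm38, because it holds the DNA contacts that related factors have in common. Capitals mark the codons from the tryptophan of this helix to its conserved arginine.
Lhx1: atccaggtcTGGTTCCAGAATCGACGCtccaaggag
Lhx5: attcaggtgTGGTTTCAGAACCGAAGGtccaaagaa
Pou4f1: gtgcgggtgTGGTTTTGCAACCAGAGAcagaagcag
Pou4f2: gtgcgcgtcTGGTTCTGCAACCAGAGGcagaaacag
Tlx3: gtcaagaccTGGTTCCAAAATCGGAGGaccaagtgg
Tlx1: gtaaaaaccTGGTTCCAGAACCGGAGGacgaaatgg

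Each of these genes was measured through all its annotated transcripts, and 13 factors had 1 transcript while 23 had several, up to 20 in Pax5. Of the 22 with several transcripts and a count in both libraries, 19 had the same main transcript in replicate 2 and replicate 1, 86.4%, beside 84.1% of all such genes. The exceptions were Barhl1, Lhx9 and Pax5. A single transcript dominated several genes: Lmx1b-201 held 98.5% of the gene's TPM in replicate 2 and 98.2% in replicate 1, and Lhx1-201 held 94.9% in replicate 2 and 93.1% in replicate 1.

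Pou4f1 was the factor whose level depended most on a non-coding transcript. Its processed transcript Pou4f1-202, 799 bases long, held 60.8% of the gene's TPM in replicate 2 and 56.7% in replicate 1. The coding transcript Pou4f1-201, 4445 bases long, held 80.0% of the gene's expected counts in replicate 2 and 82.6% in replicate 1. It had 27.9 TPM in replicate 2 and 28.4 TPM in replicate 1. Counted over protein-coding transcripts alone, Pou4f1 ranked 7 of 36 in place of 2, while Bcl11a ranked 1 either way.

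Rora and Rorb used more than 1 start. Rora-202, which starts far inside the gene, held 70.0% of Rora TPM in replicate 2 and 64.9% in replicate 1. Rorb-203, the transcript from the upstream start, held 45.8% of Rorb TPM in replicate 2 and 66.5% in replicate 1. Rorb-201, from the downstream start, held 43.1% in replicate 2 and 19.7% in replicate 1, and Rorb-204, a retained-intron transcript from nearly the same site, held 11.1% in replicate 2 and 13.8% in replicate 1. Summed by start, the downstream site held 54.2% of TPM in replicate 2 and 33.5% in replicate 1. By TPM share the order of the starts thus turned between the libraries, but only with the retained-intron Rorb-204 counted in. By expected counts Rorb-203 held 51.4% in replicate 2 and 75.3% in replicate 1, so the upstream start led in both. Gata2-201, from the downstream start of Gata2, held 65.1% in replicate 2 and 68.9% in replicate 1. Satb1-204 held 45.5% of Satb1 TPM in replicate 2 and 30.3% in replicate 1.

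**Figure D4:**
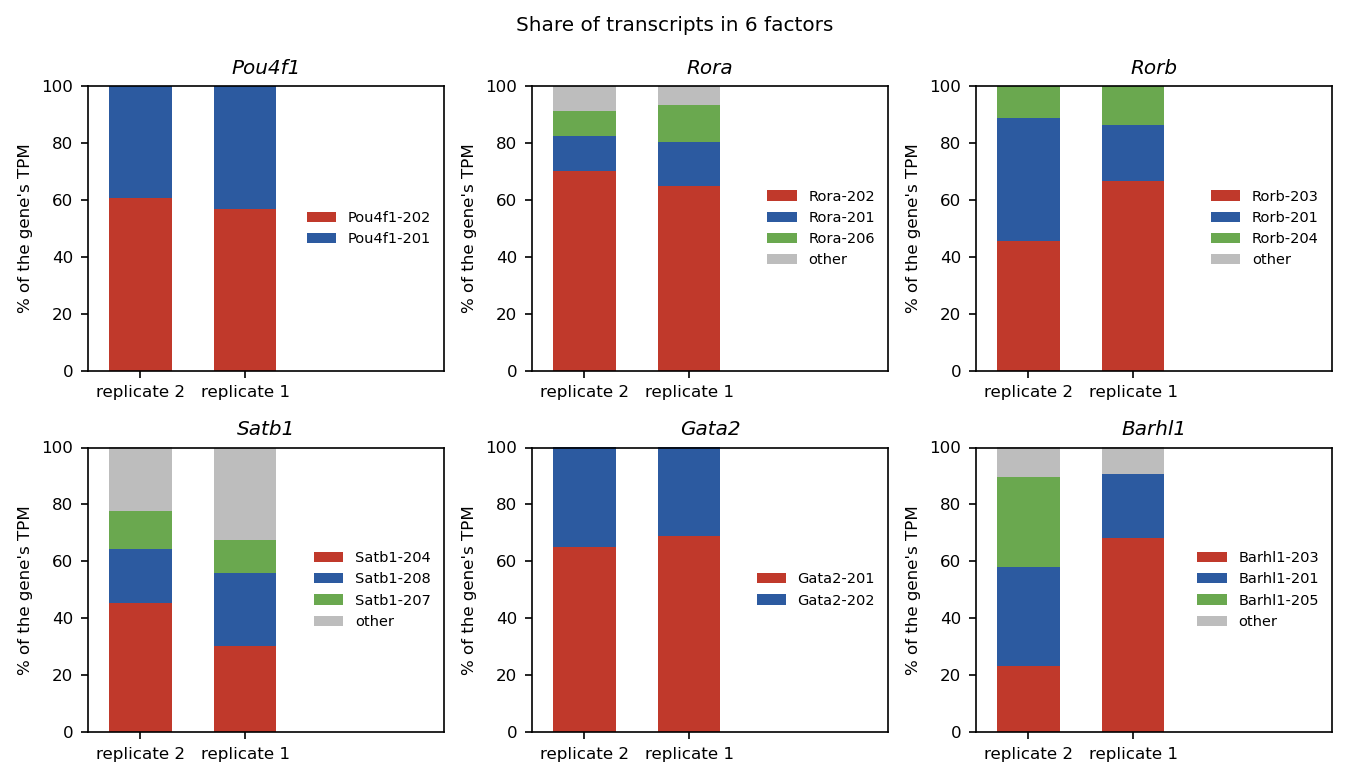
Share of each gene's TPM in its 3 leading transcripts, with replicate 2 on the left and replicate 1 on the right of each panel, and grey for all others. Pou4f1-202 and Rora-202 held most of their gene's TPM in both libraries, and Rorb-203 and Rorb-201 differed between the libraries.

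The windows before the 2 Rorb starts are shown because their transcripts had unlike shares in the 2 libraries. Each is the 250 bases upstream of a RefSeq start on GRCm38.p6, with CpG dinucleotides in capitals. On the minus strand, the window before Rorb-203 is chr19:19111197-19111446 and holds 18 CpG, and the window before Rorb-201 is chr19:19001118-19001367 and holds 4. The median over 32841 such windows of all genes was 6, and over 41 windows of 30 factors 16, with a range of 3 to 47. The median G+C content was 60.8% in the factors' windows and 52.4% in all windows. Among the factors, the 7 windows of genes under 1 TPM in both libraries had a median of 14 CpG and the other 34 windows a median of 17.5.
Rorb-203 window: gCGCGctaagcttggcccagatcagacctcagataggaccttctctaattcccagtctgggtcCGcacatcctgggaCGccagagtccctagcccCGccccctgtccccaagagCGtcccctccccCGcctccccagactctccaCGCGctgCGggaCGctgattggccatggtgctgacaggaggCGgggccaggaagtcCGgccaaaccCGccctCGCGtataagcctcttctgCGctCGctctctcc
Rorb-201 window: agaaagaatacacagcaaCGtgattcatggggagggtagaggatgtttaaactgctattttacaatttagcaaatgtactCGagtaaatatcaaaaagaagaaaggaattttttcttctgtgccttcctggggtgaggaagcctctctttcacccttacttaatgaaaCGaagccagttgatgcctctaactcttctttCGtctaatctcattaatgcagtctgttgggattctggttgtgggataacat

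Non-coding genes reached within 5 kb of the start of 12 factors, 13 genes in all, and 9 of them reached 1 TPM in both libraries. The highest was Lhx1os, a long non-coding RNA that starts 125 bases upstream of Lhx1 on the opposite strand, at chr11:84525660-84535831. Lhx1os had 151 TPM in replicate 2 and 169 TPM in replicate 1. That is 3.89 times the TPM of Lhx1 in replicate 2 and 4.40 times in replicate 1. Its counts were below those of Lhx1, at 1051 in replicate 2 and 1591 in replicate 1, beside 2090 and 2758. C130021I20Rik, whose start lies 682 bases upstream of that of Lmx1b on the opposite strand, had 20.6 TPM in replicate 2 and 21.6 TPM in replicate 1, 1.93 times the level of Lmx1b in replicate 2 and 1.68 times in replicate 1. Gm27199, which overlaps Lhx5 on the opposite strand, had 164 counts in replicate 2 and 248 in replicate 1, and its TPM was 0.931 times that of Lhx5 in replicate 2 and 1.1 times in replicate 1.

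Other neighbours were lower. Gm12688, upstream of Foxd3, had 4.55 TPM in replicate 2 and 5.49 TPM in replicate 1, above Foxd3 in both. Its counts were below those of Foxd3, at 41 in replicate 2 and 67 in replicate 1, beside 87 and 89. Gm12116, upstream of Tlx3, had 4.85 TPM in replicate 2 and 3.95 TPM in replicate 1, and Gm12063, upstream of Bcl11a, had 2.39 TPM in replicate 2 and 3.12 TPM in replicate 1. Evx1os, which overlaps the Evx1 region on the opposite strand, had 1.59 TPM in replicate 2 and 1.09 TPM in replicate 1, 2.74 times Evx1 in replicate 2 and 1.98 times in replicate 1. In all, 4 of the 13 were above their factor by TPM in both libraries, and 2 had no count in either. The counting's strand setting is unknown here, so reads of overlapping genes on opposite strands cannot be told apart.

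**Figure D5:**
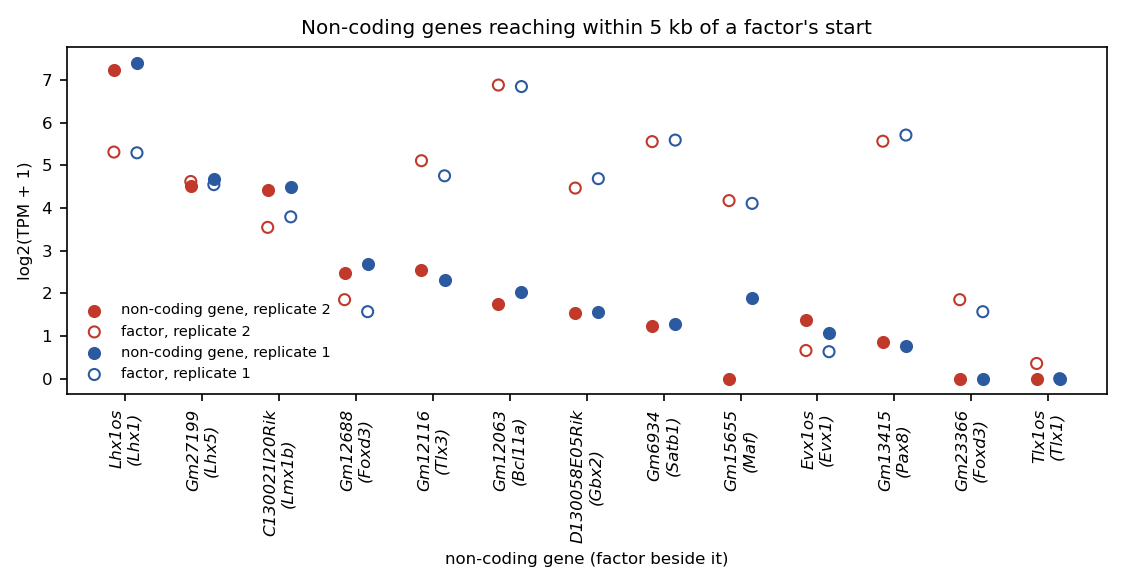
Level as log2(TPM + 1) of 13 non-coding genes that reach within 5 kb of a factor's start (filled) and of the factor beside each (open), in both libraries. Lhx1os lies above Lhx1, and C130021I20Rik above Lmx1b, in both libraries.

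The window upstream of Lhx1 is shown because it holds the start of a divergent gene with a higher level than Lhx1, and the window upstream of Tlx3 because Tlx3 has a divergent neighbour at a much lower level. Both are 250 bases on the minus strand of GRCm38.p6, from RefSeq starts, with CpG in capitals. The Lhx1 window, chr11:84525535-84525784, holds 26 CpG, and its far part lies within Lhx1os. The Tlx3 window, chr11:33203589-33203838, holds 13 CpG.
Lhx1 window: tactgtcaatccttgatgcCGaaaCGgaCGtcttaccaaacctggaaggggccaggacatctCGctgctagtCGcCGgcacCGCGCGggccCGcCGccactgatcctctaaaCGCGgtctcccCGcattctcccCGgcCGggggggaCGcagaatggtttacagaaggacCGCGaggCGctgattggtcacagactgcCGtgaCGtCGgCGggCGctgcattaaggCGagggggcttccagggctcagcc
Tlx3 window: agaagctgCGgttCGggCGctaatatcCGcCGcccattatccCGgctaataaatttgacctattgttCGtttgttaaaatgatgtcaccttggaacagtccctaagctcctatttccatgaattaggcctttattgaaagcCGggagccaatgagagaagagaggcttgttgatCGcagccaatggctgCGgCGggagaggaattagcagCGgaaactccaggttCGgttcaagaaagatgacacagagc

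Further genes of the same programmes were measured beside the 36. Of 26 other interneuron factors, 24 reached 1 TPM in both libraries, led by Ebf1 with 158 TPM in replicate 2 and 177 TPM in replicate 1. Prrxl1, a homeobox factor of dorsal horn and sensory neurons, had 94.3 TPM in replicate 2 and 103 TPM in replicate 1, and Meis2 had 83.0 TPM in replicate 2 and 91.5 TPM in replicate 1. Isl1, the fourth, had 70.2 TPM in replicate 2 and 23.6 TPM in replicate 1. Of the 25 that could be compared, Isl1 alone was past 1.5-fold, and none was lower by that factor. Motor neuron genes, 5 in all, summed to 69.0 TPM in replicate 2 and 42.7 TPM in replicate 1, with Isl2 the only one past 1.5-fold. Isl2 had 26.2 TPM in replicate 2 and 3.32 TPM in replicate 1. The ratios of Mnx1, Chat, Slc18a3 and Slc5a7 ran from 0.917 to 1.09.

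Of 18 cofactors that bind LIM, GATA or bHLH proteins, 17 reached 1 TPM in both libraries and none was past 1.5-fold. The ratio of replicate 2 to replicate 1 was 1.42 (1.31 to 1.54) for Tcf3, 1.39 (1.34 to 1.45) for Tcf12 and 0.737 (0.694 to 0.783) for Lmo3. Ssbp2, a partner of the LIM-binding protein Ldb1, had 154 TPM in replicate 2 and 174 TPM in replicate 1. Ldb1 had 83.2 TPM in replicate 2 and 75.8 TPM in replicate 1, and Ssbp3 had 91.2 TPM in replicate 2 and 83.8 TPM in replicate 1. Tcf4, an E protein that pairs with bHLH factors such as Tal1, had 141 TPM in replicate 2 and 119 TPM in replicate 1.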

How the data were processed

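The authors used mm10 and GENCODE release 4, per their deposited texts. No aligner, quantifier or strand setting is given in the sources used here. Expected counts as deposited are estimates that the authors left unscaled, and they were rounded here. TPM and FPKM as deposited correct for transcript length and library depth, per the file headers. Percent columns, as deposited, give each transcript's share of its gene's TPM. The deposited score columns, posterior spreads and bounds, were not used. Spike-ins took 596541 counts in replicate 2 and 1104733 in replicate 1.

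Symbols, types and 1-based coordinates came from GENCODE release 21 (GRCm38), by identifier without version, and 42462 of 43346 gene rows matched. Ratios between the libraries were scaled by TMM (edgeR 4.0.16, R 4.3.3), for genes whose mean count reached 10. Their 95% intervals are exact (Clopper-Pearson) and, like the 3-count floor, describe the counting error of reads alone. Amplification copies molecules, so the intervals can be too narrow for the counting error of molecules. The ratio step was tested on data simulated with counting error alone, so that test does not cover differences between animals or dissections. Level differences used log2(TPM + 1). The libraries are of different animals, and no test was made. Alternatives covered thresholds, pseudocounts, FPKM, posterior mean TPM, scaling by spike-ins or by DESeq2 1.42.0, and each library by itself. Promoter windows are RefSeq's, matched by symbol for 30 of 36 factors. Scripts ran in Python 3.11.15 with Biopython 1.88, SciPy 1.17.1, pandas 2.3.3, NumPy 2.4.6 and matplotlib 3.10.9.

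All 36 factors are named, with the 4 highest genes of each other list, genes past 1.5-fold between libraries, and the 6 highest non-coding neighbours. Some genes outside the 36 that this rule names are given only in list sums. Evx1os was named after its values were seen. The members and lists were chosen with earlier results of these data known.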

Additional observations from a re-analysis of the deposited data

How the results depend on the processing

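Of 57 alternatives to the counts and median differences, 44 stayed within 1.5 times the reported count or 1 SD of the reported difference. That number includes the median differences from each library alone. With 2 libraries each value always lies within 1 SD of their mean, so these alternatives could not fall outside it. With a pseudocount of 0.1 the dorsal minus ventral median was 1.44 and the dorsal horn minus class median 2.23 on the log2 scale. With means for medians the dorsal horn minus class difference was 1.53. Without factors under 1 TPM in both libraries the differences were 0.30 (dorsal minus ventral), 1.25 (dorsal horn minus class) and -0.12 (Tlx and Lmx1b minus Pax). That filter dropped factors unequally between the sides. It took out 2 of 11 dorsal and 4 of 9 ventral factors, no dorsal horn factor, and Tlx1 but no Pax gene. The number of factors at least 1.5-fold higher in replicate 2, 1 as reported, was 9 with spike-in totals, which shift all genes by 0.55 on the log2 scale, 3 with deposited TPM, 2 with no count filter and 0 at 2-fold. The number at least 1.5-fold lower, 3 as reported, was 0 with spike-in totals, 0 at a mean count of at least 100 and 0 at 2-fold. From each library alone, dorsal minus ventral ran from 0.77 to 1.29, dorsal horn minus class from 1.84 to 2.13, Tlx and Lmx1b minus Pax from -0.82 to -0.69, factors at 1 TPM from 29 to 30, pairs 2-fold apart from 8 to 9, and Rora minus Rorb from -0.30 to 0.051, the 1 reversal among 91 pair alternatives.

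Factors at 1 TPM or more numbered 33 at 0.5 TPM and 26 at 2 TPM. Depth limits Tlx1, Vsx1, Evx2, Pax5, Evx1 and Lhx2, whose counts were under 50 in each library.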
